A study of Mus musculus with 10 samples.

Results

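Kinesins are motor proteins that use ATP to walk along microtubules or to take microtubules apart from their ends. In the testis they are known from several kinds of work. One set builds the spindle and the midzone of dividing cells, another moves cargo into cilia and the sperm flagellum, and a further set carries vesicles and organelles. The members were the genes of the scRNA-seq matrix whose symbol is Kif followed by a number and a short suffix. This rule found 39 of the 28125 genes of the RNA matrix and 40 of the 30670 genes of the scATAC-seq matrix, of which Kif12 was in the scATAC-seq matrix only. Among them, 2 lie outside the kinesin family. Kif1bp, named Kifbp in RefSeq, encodes a protein that binds kinesins, and Kif16bos is a long non-coding RNA whose start lies 1356 bases from that of Kif16b on the opposite strand. The other 37 genes with RNA values encode proteins of the family, of which Kif26a and Kif26b are known to lack motor activity. Kinesins with other names, such as Cenpe and Kifc1, were not members.

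Nuclei of whole testes came from C57BL/6J wild-type mice at 11, 17 and 25 dpp, from 8-week-old Stra8-Cre Cre/+ mice and from 8-week-old Nfya-CKO mice. The Nfya-CKO mice carry floxed Nfya alleles and Stra8-Cre, which removes exons 5 to 6 of Nfya, the gene of the DNA-binding subunit of the CCAAT-binding factor NF-Y, in premeiotic germ cells. Stra8-Cre expresses Cre and ZsGreen1 from the Stra8 locus and is carried by the Cre/+ controls as well. Both scRNA-seq and scATAC-seq were run on these nuclei, and 31569 of the scATAC-seq cells carried a population name taken from scRNA-seq. Every condition had a single library for each assay, 10 libraries in all, and the authors deposited the mean of each cell population pooled over libraries. No comparison therefore has a replicate check, no p-value is given, and the intervals cover counting error only.

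The matrices hold 9 control germ cell populations, which are named by abbreviations in order of development. Spermatogonia were split into undifferentiated (undiff. SpG) and differentiating ones (diff. SpG) and were followed by preleptotene cells (pL). Meiotic prophase began with a mixture from early leptotene to zygotene (eL/L/Z) and a mixture from leptotene to early pachytene (L/Z/eP). It went on with mid to late pachytene (mP/lP) and diplotene (D), and the spermatids were round (RS) or elongating (ES). Beside them stand spermatogonia of the library labelled Nfya-CKO (SpG Nfya-CKO, 491 cells), Sertoli cells, a further somatic population (other somatic cells) and 99 cells of unknown type. RNA levels are mean UMIs per 10000 UMIs of a cell, and a population held between 491 and 8107 cells apart from the unknown cells. Control cells differed in age as well as genotype. Undiff. SpG came to 92.0% from juvenile wild-type mice and diff. SpG to 84.5% from Cre/+ mice, so genotype and age cannot be told apart. Nfya RNA was 1.11 in SpG Nfya-CKO against 0.456 in undiff. SpG, so it was higher rather than lower, and the library is called by its label for this reason. The paper reports loss of NFYA protein from germ cells of Nfya-CKO testes by western blot and immunohistochemistry. RNA counted over the whole gene does not measure that loss. Whether the deleted exons were covered by these reads is not given by the matrix.

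Libraries also shared cell barcodes. Of the 5152 cells of the library labelled Nfya-CKO, 3813 (74.0%) had a barcode that also named a cell of the Cre/+ library, and 621 to 853 barcodes were shared by each pair of the juvenile libraries. The share of cells with such a barcode was 35.6% in SpG Nfya-CKO, 32.5% in undiff. SpG, 49.1% in diff. SpG, 59.7% in ES and 70.1% in other somatic cells. Over all 3813 pairs the median was 1276 UMIs in the library labelled Nfya-CKO and 9129 UMIs in Cre/+. Other somatic cells were the shallow side, by medians, of 1110 pairs with mP/lP (1201 against 16778.5 UMIs). The same held for 609 pairs with RS (777 against 7844) and 503 with D (890 against 9588). Other pairs ran the opposite way. Of these, 143 joined a SpG Nfya-CKO cell (median 21876 UMIs) to a diff. SpG cell of Cre/+ (median 2378 UMIs). A further 709 joined an other somatic cell of the library labelled Nfya-CKO (29626 UMIs) to an ES cell of Cre/+ (3192 UMIs). The deposited matrices give 1 pooled value per population, so kinesin values without these cells were not computed. Counts without diff. SpG and without ES are given with the steps below, and the part of the shared barcodes in any kinesin value was not tested.

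Marker genes matched some population names and not others. The 2 markers of elongating spermatids, Prm1 and Tnp1, summed to 59.3 in ES and to 0.00413 to 14.6 in the other named populations. Those of undifferentiated spermatogonia summed to 15.7 in undiff. SpG and 16.4 in SpG Nfya-CKO against at most 6.19 elsewhere. These near-equal sums hide opposite changes of single markers. Zbtb16 was 8.74 in undiff. SpG and 4.15 in SpG Nfya-CKO, Uchl1 was 5.88 and 11.0, and Gfra1 was 1.08 and 1.20. The 3 markers of differentiating spermatogonia, Kit, Dmrtb1 and Stra8, summed to 5.19 in diff. SpG, 2.73 in undiff. SpG and 7.97 in pL, so diff. SpG is not set apart from pL by them. Markers of other cells were present where kinesin results rest on them. The summed RNA of 4 spermatid markers was 7.15 in diff. SpG, 0.537 in undiff. SpG and 0.0479 in pL. The 9 somatic markers summed to 34.6 in ES and 25.8 in SpG Nfya-CKO against 3.36 in undiff. SpG. None of these markers was at 0 in any population, so a value above 0 does not set populations apart. In ES the Sertoli gene Clu was at 31.3 and Sox9 at 1.90, but Amh was at 0.00436, below the value of 3 UMIs there, 0.0120.

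Because the study concerns NF-Y, the promoters of the kinesins were read for the letters CCAAT, the box that NF-Y binds, and TTTGAA, the core of the cell cycle genes homology region found in promoters of many genes of cell division, each on both strands and counted where they overlapped or not. RefSeq promoters of GRCm38.p6, each 300 bases from 250 before to 50 after a start, were at hand for 32 of the 40 genes in 36 windows. Kif1bp, Kif5a, Kif5b, Kif13b, Kif19a, Kif20a, Kif21b and Kif28 had none. The letters TTTGAA were in 9 of the 10 windows of spindle and cytokinesis kinesins (90%), in 3 of the 26 windows of the other members (11.5%) and in 17.9% of all 32851 windows. CCAAT was in 6 of the 10 spindle windows (60%), in 10 of the 26 others (38.5%) and in 37.4% of all windows. Both motifs stood in 60% of the spindle windows and in 6.95% of all windows. A match describes the letters of the window and is not a site.

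The stretches from base -70 to base 30 around the start are shown for the 7 spindle kinesins with TTTGAA inside that stretch, because it falls close to the start in each of them. Positions count from 1 at the start base, with -1 just before it, and capitals mark either motif as it reads on the strand of the gene, so that CCAAT on the opposite strand appears as ATTGG.
Kif11 (chr19:37376312-37376411, plus strand): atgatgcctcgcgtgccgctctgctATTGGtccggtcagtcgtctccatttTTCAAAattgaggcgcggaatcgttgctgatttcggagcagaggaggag
Kif15 (chr9:122951011-122951110, plus strand): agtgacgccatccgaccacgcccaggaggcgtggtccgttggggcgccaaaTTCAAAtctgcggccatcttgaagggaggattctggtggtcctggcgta
Kif18b (chr11:102925095-102925194, minus strand): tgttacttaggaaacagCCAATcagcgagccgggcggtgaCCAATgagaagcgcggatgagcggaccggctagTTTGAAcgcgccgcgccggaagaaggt
Kif20b (chr19:34922288-34922387, plus strand): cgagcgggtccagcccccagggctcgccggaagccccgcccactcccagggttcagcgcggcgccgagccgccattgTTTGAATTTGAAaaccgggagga
Kif22 (chr7:127042391-127042490, minus strand): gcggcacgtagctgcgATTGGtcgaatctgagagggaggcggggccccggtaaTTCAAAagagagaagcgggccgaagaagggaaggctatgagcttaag
Kif23 (chr9:61946770-61946869, minus strand): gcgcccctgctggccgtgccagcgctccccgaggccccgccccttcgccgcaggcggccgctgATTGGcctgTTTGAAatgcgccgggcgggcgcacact
Kif4 (chrX:100625995-100626094, plus strand): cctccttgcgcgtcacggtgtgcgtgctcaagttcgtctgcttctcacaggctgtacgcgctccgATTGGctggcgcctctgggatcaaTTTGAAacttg

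TTTGAA started at -19 in Kif11 and Kif15, at -17 in Kif22, at 3 in Kif23, at 4 in Kif18b, at 8 and 14 in Kif20b and at 20 in Kif4. Kif15 and Kif22 held a second match farther upstream, at -234 and -215. In Kif2c (-103) and Kif14 (-228) the only match lay farther upstream, and the windows of these 2 genes lie wholly inside the annotated gene. So do those of Kif3a, Kif21a, Kif26a and Kif27 and a window each of Kif1a and Kif9. Kif18a was the spindle kinesin whose window did not hold TTTGAA. Outside the spindle group, TTTGAA started at -9 in Kif26b, at -44 in a window of Kif1a and at -191, -89 and -73 in Kif27. A match close to the start was thus not particular to spindle kinesins. For contrast, the same stretch is shown for Kif9, a flagellar kinesin whose RNA was highest in D, and for Kif1c, the kinesin that was at least 2-fold lower in SpG Nfya-CKO than in undiff. SpG. Neither has the letters of either motif in its windows.
Kif9 (chr9:110476888-110476987, plus strand): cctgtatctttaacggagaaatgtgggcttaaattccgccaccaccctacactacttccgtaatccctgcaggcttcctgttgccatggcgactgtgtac
Kif1c (chr11:70700478-70700577, plus strand): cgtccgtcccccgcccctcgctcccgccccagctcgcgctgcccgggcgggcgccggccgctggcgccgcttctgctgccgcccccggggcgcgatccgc

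Kif24 is shown from -245 to -65 because it had the most CCAAT boxes of any kinesin window, 4 of them, at -240, -158, -116 and -74. They all read ATTGG on the strand of the gene.
Kif24 (chr4:41464913-41465093, minus strand): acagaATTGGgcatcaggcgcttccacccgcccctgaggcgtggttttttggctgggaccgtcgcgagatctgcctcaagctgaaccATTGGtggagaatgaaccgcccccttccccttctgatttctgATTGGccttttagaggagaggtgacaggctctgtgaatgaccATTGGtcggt

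RNA of the kinesins was spread over the whole of spermatogenesis. The highest control germ cell population was one of the 3 before meiosis for 18 of 39 members, one of the 4 of meiotic prophase for 12 and a spermatid population for 9. Of the 15250 genes with a mean of at least 0.05 over the populations, 42.7% were highest before meiosis, 24.2% in prophase and 33.1% in spermatids. For 26 of the 39 members the highest population exceeded the next by more than the 95% counting interval of their difference. Among genes past the minimum mean this held for 25 of the 37 members and 64.0% of all genes. All values compare populations within a gene, since UMIs of different genes were not scaled by length.

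**Figure D1:**
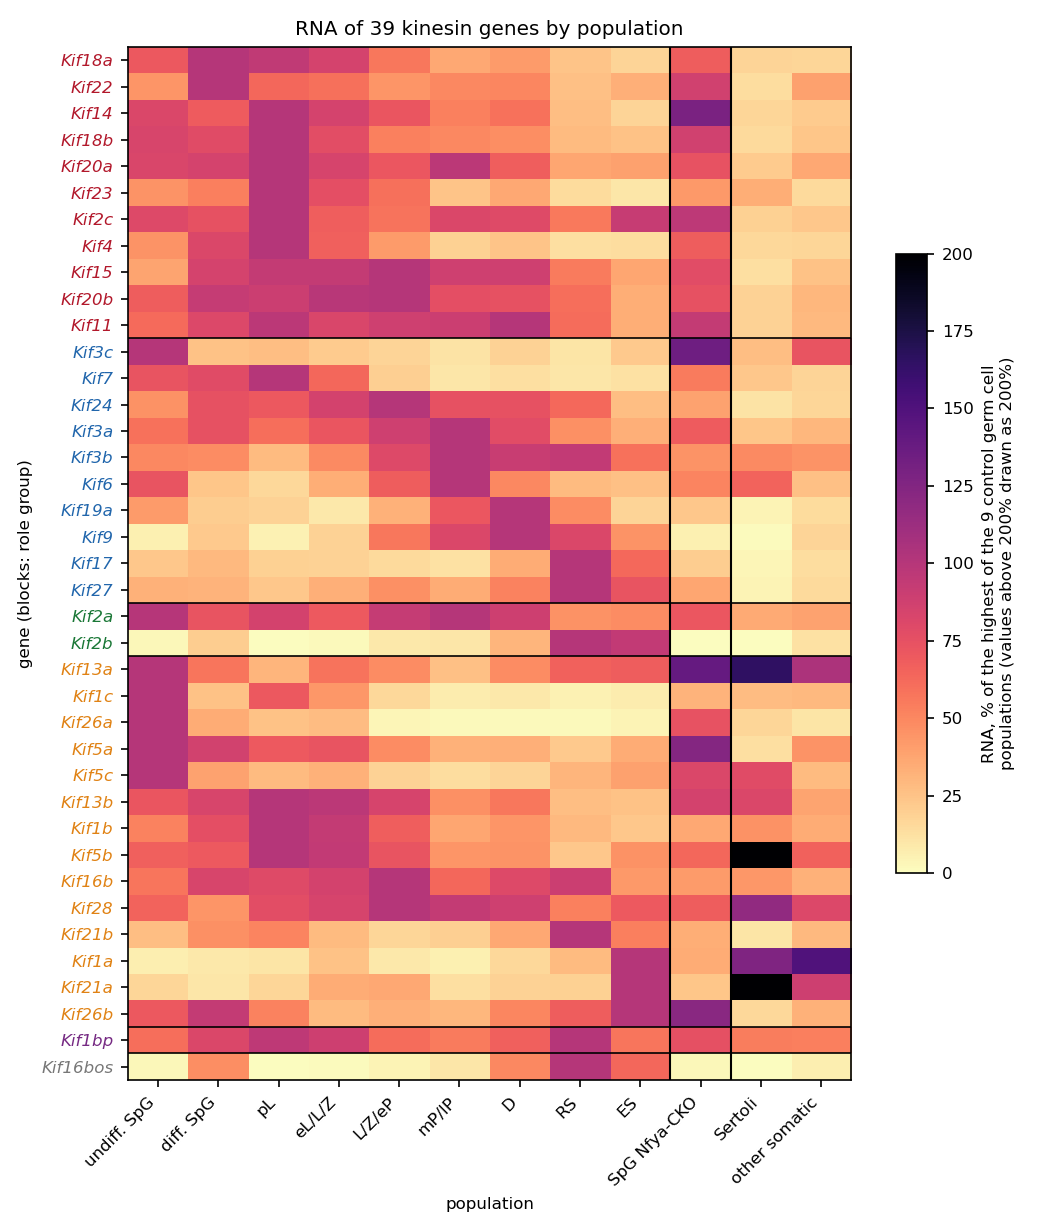
RNA of 39 kinesin genes (rows) in 12 populations (columns), as percent of the highest of the 9 control germ cell populations of each gene. Blocks from top to bottom are spindle and cytokinesis (11 genes), cilium and flagellum (10), end depolymerases (2), cargo transport and others (14), Kif1bp and Kif16bos. The spindle block is darkest from diff. SpG to eL/L/Z, and the lower rows of the cilium block are darkest from mP/lP to RS.

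Spindle and cytokinesis kinesins were highest around the last mitoses and at entry into meiosis. Of these 11 genes, 8 peaked before meiosis, 3 in prophase and none in spermatids, where 42.7%, 24.2% and 33.1% of all genes did. Their median level, as percent of the germ cell maximum of each gene, was 68.3% in undiff. SpG, 82.0% in diff. SpG, 100% in pL, 82.5% in eL/L/Z, 60% in L/Z/eP, 52.4% in mP/lP, 58.9% in D, 28.7% in RS and 33.3% in ES. RNA of the mitotic motors was thus still at more than 50% of its maximum at the median through pachytene and diplotene, where cells do not divide, and was lowest in spermatids.

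Kif23, which bundles microtubules of the spindle midzone and is a part of the intercellular bridges of germ cells, had the widest range of the 4 spindle kinesins with the most UMIs. Its RNA was 1.38 in undiff. SpG, 1.65 in diff. SpG, 3.08 in pL, 2.34 in eL/L/Z, 1.85 in L/Z/eP, 0.76 in mP/lP, 1.11 in D, 0.435 in RS and 0.312 in ES. The pL level was 9.87 times that of ES, and it exceeded the eL/L/Z level by 0.742 (counting interval 0.601 to 0.882). Kif15, which helps to keep the spindle bipolar, was instead low in undiff. SpG, nearly level from diff. SpG to D and low again in spermatids. Its RNA was 0.850, 1.91, 2.10, 2.11, 2.25, 1.98, 1.98, 1.24 and 0.835 from undiff. SpG to ES in the same order. Kif20b, a midzone kinesin of late cytokinesis, had a 2.95-fold range, with 1.46, 1.97, 1.91, 2.11, 2.13, 1.62, 1.60, 1.28 and 0.724. Its highest populations, L/Z/eP and eL/L/Z, did not differ beyond counting error. Kif2c, a depolymerase of centromeres, varied least of the spindle group. It was at 1.34, 1.26, 1.68, 1.14, 0.982, 1.37, 1.34, 0.937 and 1.54, and its pL and ES values did not differ beyond counting error.

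Of the remaining spindle kinesins, Kif4 and Kif22, which bind chromosome arms, peaked at 0.882 in pL and 0.486 in diff. SpG. Kif14 and Kif20a, which act in cytokinesis, peaked in pL at 0.776 and 0.723. Kif18a and Kif18b, which limit microtubule growth at plus ends, peaked at 0.619 in diff. SpG and 0.468 in pL. Kif11, the motor that pushes spindle poles apart, was highest in D at 1.42 but did not differ there from pL, at 1.38, beyond counting error. For Kif18a and Kif20a too, the highest population did not stand apart from the next.

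Cilium and flagellum kinesins had their highest group median in mP/lP. Of these 10 genes, 2 peaked before meiosis, 6 in prophase and 2 in spermatids, where 42.7%, 24.2% and 33.1% of all genes did. In all 10 the highest population exceeded the next beyond counting error, where it did in 64.0% of all genes. The group median was 47.6% of the germ cell maximum in undiff. SpG, 30.8% in diff. SpG, 25.2% in pL, 33.6% in eL/L/Z, 51.6% in L/Z/eP, 73.3% in mP/lP, 63.3% in D, 55.5% in RS and 30.1% in ES.

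Kif9, a kinesin of the central apparatus of motile cilia and the flagellum, had the widest range of this group. Its RNA was 0.258 in undiff. SpG, 0.952 in diff. SpG, 0.211 in pL, 0.790 in eL/L/Z, 2.41 in L/Z/eP, 3.49 in mP/lP, 4.27 in D, 3.50 in RS and 1.93 in ES. The D level was 20.3 times that of pL. The value in diff. SpG breaks the order of the stages and stands beside the spermatid markers noted above for that population, whose part in it was not tested. Kif3a and Kif3b, the motor subunits of the kinesin of intraflagellar transport, were both highest in mP/lP. Kif3a RNA was 1.83, 2.33, 1.89, 2.24, 2.74, 3.11, 2.41, 1.45 and 1.02 from undiff. SpG to ES, and Kif3b RNA was 0.979, 0.95, 0.559, 0.968, 1.58, 1.98, 1.80, 1.87 and 1.17. In RS, Kif3a was at 46.6% of its maximum and Kif3b at 94.0%. Kif24, a depolymerase of centrioles, peaked earlier, with 1.07, 1.74, 1.65, 1.99, 2.33, 1.74, 1.73, 1.46 and 0.635.

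The other members of the group divided into early and late genes. Kif17, a kinesin of cilia that in spermatids is known to move a transcriptional coactivator, and Kif27, a relative of the Hedgehog kinesin Kif7, peaked in RS at 2.49 and 2.50. Kif6, related to Kif9, was highest in mP/lP at 1.5 and second in undiff. SpG at 1.10, with 0.236 in pL between them. Kif19a, which sets the length of cilia, was weak, peaking in D at 0.115, and did not pass the minimum mean of 0.05. Kif3c, a relative of Kif3b, was highest in undiff. SpG at 0.291, and Kif7 in pL at 0.275.

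**Figure D2:**
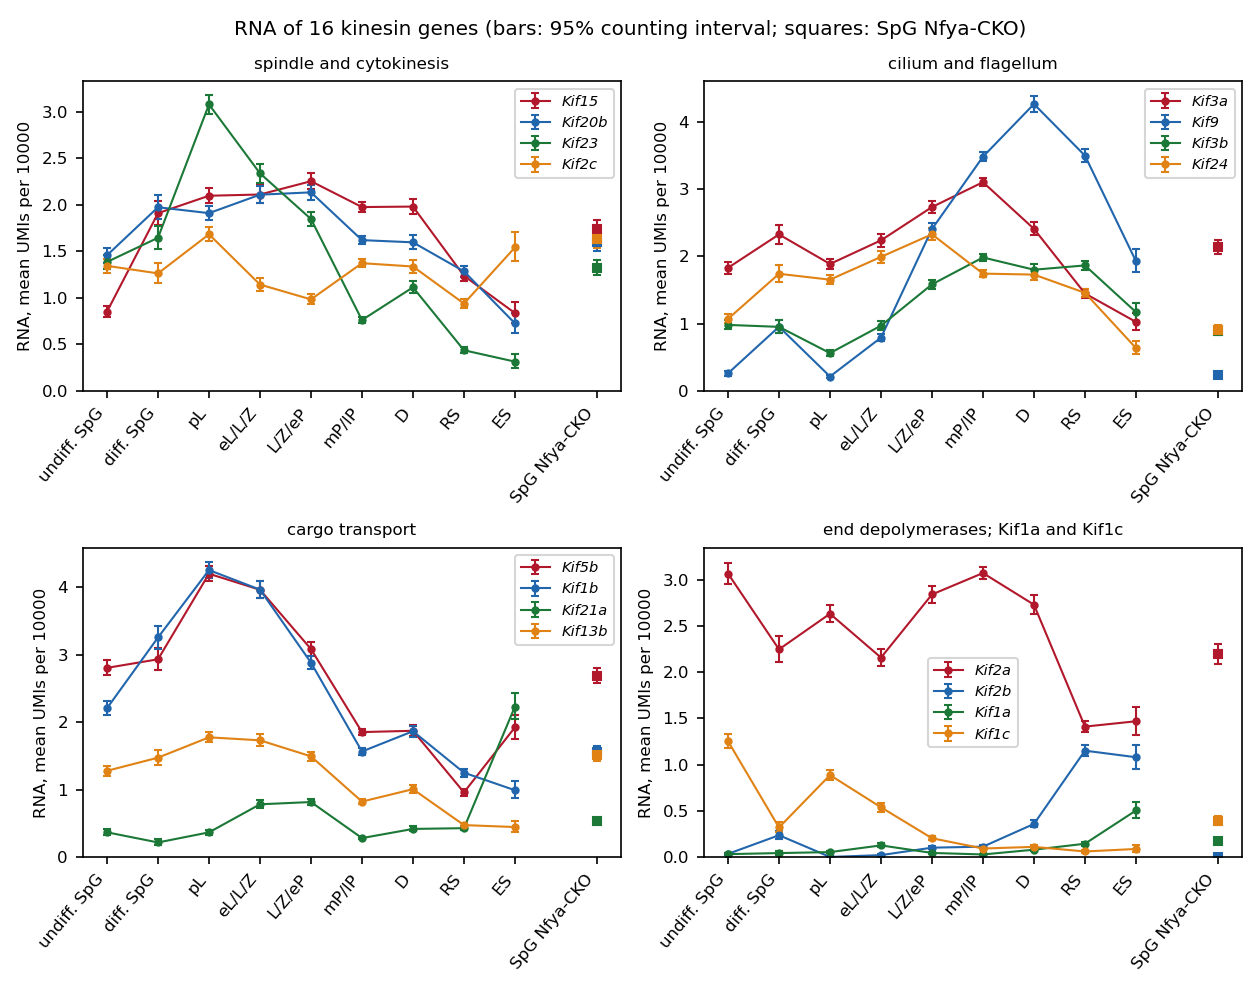
RNA (mean UMIs per 10000) of 16 kinesin genes over 9 control germ cell populations in order of development (circles) and in SpG Nfya-CKO (squares), with 95% counting intervals as bars. Kif23 has its maximum in pL (3.08), Kif9 in D (4.27), Kif2b in RS (1.15) and Kif21a in ES (2.23).

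The depolymerases Kif2a and Kif2b peaked at different times. Kif2a, which trims microtubule ends at spindle poles and in interphase, was 3.07 in undiff. SpG, 2.25 in diff. SpG, 2.63 in pL, 2.16 in eL/L/Z, 2.84 in L/Z/eP, 3.07 in mP/lP, 2.73 in D, 1.41 in RS and 1.47 in ES, with mP/lP and undiff. SpG equal within counting error. Kif2b, which is closely related, was 0.0353, 0.237, 0.00200, 0.0219, 0.103, 0.113, 0.359, 1.15 and 1.08. In pL it lay below the value of 3 UMIs over that population, 0.00246. In RS and ES it did not differ beyond counting error, and these levels were the highest of the gene. Its value in diff. SpG, like that of Kif9, was above those of undiff. SpG and pL on either side.

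Cargo transport kinesins had no common stage. Of the 14 genes with RNA values, 8 were highest before meiosis, 2 in prophase and 4 in spermatids, where 42.7%, 24.2% and 33.1% of all genes were. Kif5b, the widely expressed heavy chain of conventional kinesin, was 2.80 in undiff. SpG, 2.93 in diff. SpG, 4.20 in pL, 3.96 in eL/L/Z, 3.08 in L/Z/eP, 1.85 in mP/lP, 1.87 in D, 0.959 in RS and 1.92 in ES. Kif1b, a carrier of mitochondria and vesicles, was also highest in pL and lowest in ES, with 2.21, 3.25, 4.25, 3.96, 2.88, 1.56, 1.87, 1.25 and 0.991. Kif13b, a carrier of membrane cargo, was 1.28, 1.47, 1.77, 1.73, 1.49, 0.823, 1.01, 0.475 and 0.446. All 3 were highest in pL and lowest in a spermatid population, although for Kif13b pL and eL/L/Z did not differ beyond counting error.

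Kif21a, which restrains microtubule growth, was highest in ES instead, with 0.368, 0.218, 0.367, 0.783, 0.816, 0.282, 0.418, 0.429 and 2.23. The ES value exceeded the next by 1.41 (counting interval 1.22 to 1.61). Kif1a, a carrier of vesicle precursors in neurons, was likewise highest in ES, with 0.0325, 0.0440, 0.0545, 0.127, 0.0455, 0.0289, 0.0806, 0.145 and 0.505. Both genes were higher still in Sertoli cells (4.66 and 0.638), and the somatic markers and shared barcodes of ES given above stand beside these values. Their part in them was not tested.

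Further transport kinesins were highest in undiff. SpG. Kif26a, which lacks motor activity and acts in signalling, was 1.61 there against 0.555 in diff. SpG and 0.0260 in RS. Kif1c, a vesicle carrier, was 1.25 in undiff. SpG, 0.321 in diff. SpG, 0.887 in pL, 0.539 in eL/L/Z, 0.205 in L/Z/eP, 0.0933 in mP/lP, 0.111 in D, 0.0613 in RS and 0.0884 in ES. The neuronal heavy chains Kif5c and Kif5a were also highest in undiff. SpG, at 1.03 and 0.517, as was the endosome carrier Kif13a at 0.330, but for Kif5a the next population was not apart beyond counting error. Kif16b, which moves early endosomes, peaked in L/Z/eP at 0.955 and Kif28 there at 0.196. Kif21b, the relative of Kif21a, was highest in RS at 0.786, and Kif26b, the relative of Kif26a, in ES at 0.0934. For Kif28 and Kif26b the highest population was not apart from the next beyond counting error. Of the 2 genes outside the family, Kif1bp was highest in RS at 0.877 and Kif16bos, which did not pass the minimum mean, in RS at 0.0523, neither apart from the next population.

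Steps between neighbouring populations were counted as at least 2-fold on the scale of RNA plus 0.1. Over 8 steps and the 37 members that passed the minimum mean, 13 of 296 steps were at least 2-fold higher and 13 at least 2-fold lower, in 14 genes. From undiff. SpG to diff. SpG, Kif15, Kif2b and Kif9 were higher, where 9.57% of all genes were, and Kif1c, Kif26a, Kif3c, Kif5c and Kif6 were lower, where 6.28% were. From diff. SpG to pL, Kif1c was higher (1.27% of all genes) and Kif2b and Kif9 lower (10.9%). Kif1c, Kif2b and Kif9 were thus past the threshold in opposite directions at these steps. Cells of juvenile mice made up 92.0% of undiff. SpG, 15.3% of diff. SpG and 99.7% of pL, so stage, age and genotype cannot be told apart here, and the spermatid markers of diff. SpG given above stand beside these values. Their part was not tested. From pL to eL/L/Z, Kif9 was higher (4.41%) and no member lower (0.590%).

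Between eL/L/Z and L/Z/eP, Kif9 was higher again (5.45% of all genes), with a log2 ratio of 1.49 (counting interval 1.39 to 1.60), and Kif1c and Kif26a were lower (3.97%). From L/Z/eP to mP/lP no member was higher (1.38%), and Kif21a and Kif23 were lower (3.54%). From mP/lP to D, Kif17 and Kif2b were higher (4.92%) and none was lower (0.184%). Both genes were highest in RS, and the 4 spermatid markers summed to 2.55 in mP/lP and 8.61 in D. The part of spermatid RNA in the step from mP/lP to D was not tested. From D to RS, Kif17, Kif21b and Kif2b were higher (10.6%) and Kif23 was lower (3.34%), with a log2 ratio of -1.18 (-1.30 to -1.06). From RS to ES, Kif1a and Kif21a were higher (10.1%) and Kif24 was lower (10.0%). With diff. SpG left out, 11 steps were higher and 11 lower, and with ES left out 11 and 12.

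Spermatogonia of the library labelled Nfya-CKO are compared with undiff. SpG to ask which kinesins differ between these populations. Of the 37 members, Kif1a was at least 2-fold higher, where 4.09% of all genes were, and Kif1c was at least 2-fold lower, where 3.08% were. The median log2 ratio was 0.06 over the members and 0.01 over all genes. Kif1a (chr1:93015455-93102039) was 0.175 in SpG Nfya-CKO and 0.0325 in undiff. SpG, a log2 ratio of 1.05 (counting interval 0.85 to 1.25). It was short of 2-fold after scaling by the median of ratios, at 0.90, with a pseudocount of 0.5, at 0.34, against diff. SpG, at 0.93, and against pL, at 0.83, and it was 1.89 with a pseudocount of 0.02. Kif1a is also a gene of the somatic populations, at 0.757 in other somatic cells, and the 9 somatic markers were at 25.8 in SpG Nfya-CKO against 3.36 in undiff. SpG. Clu made up 22.8 and 2.50 of these sums, the other 8 markers summed to 3.05 and 0.864, and Amh was lower in SpG Nfya-CKO (0.0116 against 0.0431). Their part in the Kif1a value was not tested.

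Kif1c (chr11:70700396-70731970) was 0.395 in SpG Nfya-CKO and 1.25 in undiff. SpG, a log2 ratio of -1.45 (-1.60 to -1.30). The 3 premeiotic control populations ran from 0.321 in diff. SpG to 1.25 in undiff. SpG, and the value in SpG Nfya-CKO lay inside this range, just above that of diff. SpG. Against pL the log2 ratio was -0.996 and against diff. SpG it was 0.23, so the direction turned with 1 of the 3 references. The 143 SpG Nfya-CKO cells that share a barcode with a diff. SpG cell stand beside this value, and their part in it was not tested. With a pseudocount of 0.5 the ratio to undiff. SpG was -0.97, short of 2-fold.

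**Figure D3:**
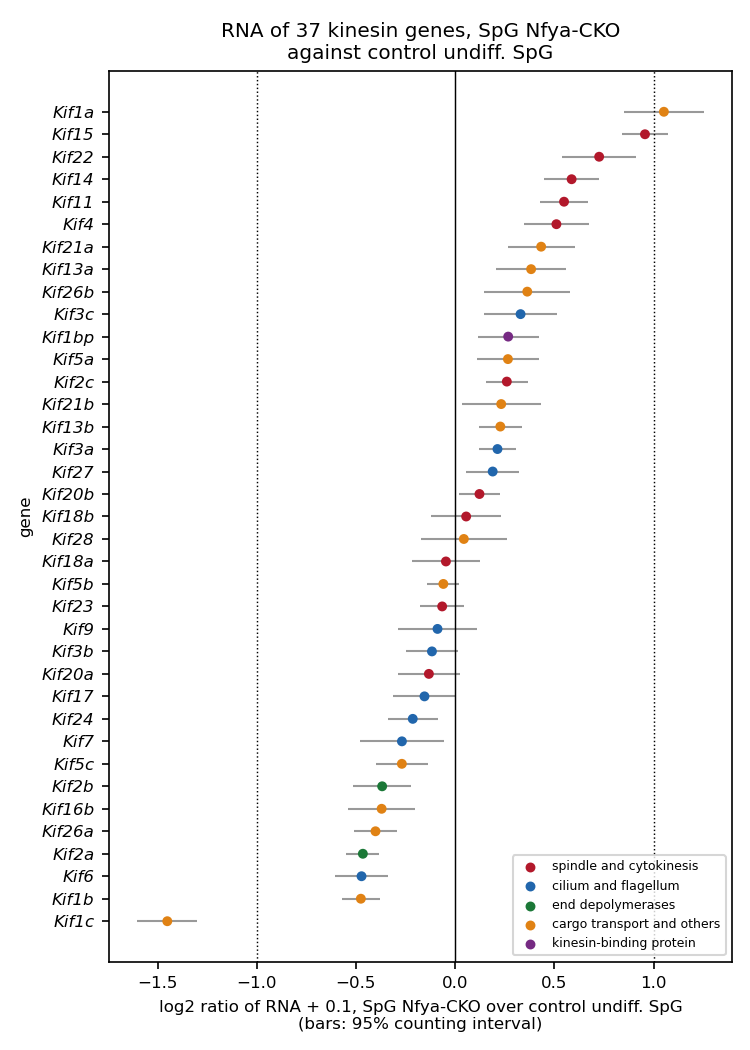
Log2 ratio of RNA plus 0.1 in SpG Nfya-CKO over control undiff. SpG for the 37 kinesin genes that passed the minimum mean, with 95% counting intervals as bars, 2-fold limits as dotted lines and colours for role groups. Kif1a (1.05) and Kif1c (-1.45) lie past the limits, Kif15 (0.96) just inside.

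No spindle kinesin passed the 2-fold limit. Their median was 0.26, with 8 of 11 above 0, where 20 of the 37 members and 50.9% of all genes were. After scaling by the median of ratios, 6 of 11 were above 0 and 38.3% of all genes. Of the lists of related genes described next, 6 division markers had a median of -0.37, 7 midzone partners -0.17, 13 intraflagellar transport genes -0.11 and 10 motor partners 0.47. Kif15 was 1.74 in SpG Nfya-CKO and 0.850 in undiff. SpG, a log2 ratio of 0.96, just inside the 2-fold limit. Kif22 followed at 0.73, Kif14 at 0.59, Kif11 at 0.55 and Kif4 at 0.51. Kif15 was higher in the other premeiotic control populations than in undiff. SpG as well, with 1.91 in diff. SpG and 2.10 in pL, so that its log2 ratio was -0.12 against diff. SpG and -0.25 against pL. Spindle kinesins that did not follow were Kif23 (-0.07), Kif18a (-0.05) and Kif20a (-0.13). The cilium and flagellum group had a median of -0.12 and ran from -0.47 (Kif6) to 0.33 (Kif3c), and the depolymerases were at -0.47 (Kif2a) and -0.37 (Kif2b). In the transport group Kif1b (-0.48) and Kif26a (-0.40) were the next lowest after Kif1c.

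Partners of the kinesins were read from lists chosen with earlier results known. Of 10 motor partners in the matrix (light chains, the kinesin-2 subunit Kifap3, Cenpe and minus-end kinesins), 2 were at least 2-fold higher in SpG Nfya-CKO than in undiff. SpG, against the 4.09% of all genes, and none was lower. These were the light chain Klc4 (0.748 against 0.270) and the minus-end kinesin Kifc2 (0.646 against 0.271). Their log2 ratios were 1.20 and 1.01, but 0.997 and 0.82 after scaling by the median of ratios and 0.70 and 0.57 with a pseudocount of 0.5, all short of 2-fold. Klc4 was 0.780 in other somatic cells, and the part of the somatic markers given for Kif1a was not tested for Klc4 either. Of 7 midzone partners, 13 intraflagellar transport genes and 6 division markers, none was 2-fold apart. Over the stages of spermatogenesis, 42.7% of all genes were highest before meiosis, 24.2% in prophase and 33.1% in spermatids. The 13 intraflagellar transport genes that ride on Kif3a and Kif3b were highest in prophase for 9 and in spermatids for 4, and none before meiosis. Kifap3, the third subunit of that motor, was highest in RS at 4.24, later than Kif3a and Kif3b. Of the 7 midzone partners of Kif23, Kif20a and Kif4, 5 were highest before meiosis, all of them in pL, and Prc1 and Cdca8 in mP/lP.

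Sertoli cells, which nurse the germ cells, differed from the other somatic cells in 11 kinesins. The markers set these populations apart as named, except for Clu. Sox9 was at 10.7 in Sertoli cells and 3.54 in other somatic cells, and Amh at 0.927 and 0.0321. Clu was at 34.1 and 91.5, so that the 3 Sertoli markers summed to 45.7 and 95.04. The markers of Leydig, peritubular and macrophage cells were each highest in other somatic cells. Sertoli cells came to 87.8% from mice at 11 dpp and other somatic cells to 78.8% from the library labelled Nfya-CKO, so cell type, age and genotype cannot be told apart. The median log2 ratio was -0.22 over all genes and -0.18 over the members. Kif13b, Kif21a, Kif23, Kif5b, Kif5c and Kif6 were at least 2-fold higher in Sertoli cells, where 5.98% of all genes were. After scaling by the median of ratios the same 6 were higher, where 13.8% of all genes were. Kif17, Kif27, Kif2b, Kif5a and Kif9 were lower, where 15.4% were. Kif5b was 9.23 in Sertoli cells and 2.76 in other somatic cells, a log2 ratio of 1.71 (counting interval 1.65 to 1.77), and its Sertoli value was above that of every germ cell population. Kif21a was 4.66 against 1.98. Kif23 was 1.05 against 0.474, but the spindle group had a median log2 ratio of -0.33. Of the 11 spindle genes 2 were above 0, where 37.6% of all genes were. After scaling by the median of ratios, 5 of the 11 were above 0, where 52.8% of all genes were. The division markers Mki67 (0.579 against 0.622) and Top2a (1.33 against 1.75) were not higher in Sertoli cells.

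The share of members lower in Sertoli cells, 5 of 37, was near that of all genes, and Kif9 and Kif2b alone were still at least 2-fold lower after scaling by the median of ratios. In germ cells Kif9 was highest in D, Kif17, Kif27 and Kif2b in RS and Kif5a in undiff. SpG. Kif9 was 0.0570 in Sertoli cells and 0.746 in other somatic cells, Kif27 was 0.103 and 0.389, Kif17 was 0.0948 and 0.334, Kif5a was 0.0652 and 0.234, and Kif2b was 0.000648 and 0.141. In Sertoli cells Kif2b lay under the value of 3 UMIs, 0.00102. The 4 spermatid markers summed to 3.10 in other somatic cells and 0.0323 in Sertoli cells, and 70.1% of the other somatic cells had a shared barcode. The part of these in the 5 values was not tested.

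**Figure D4:**
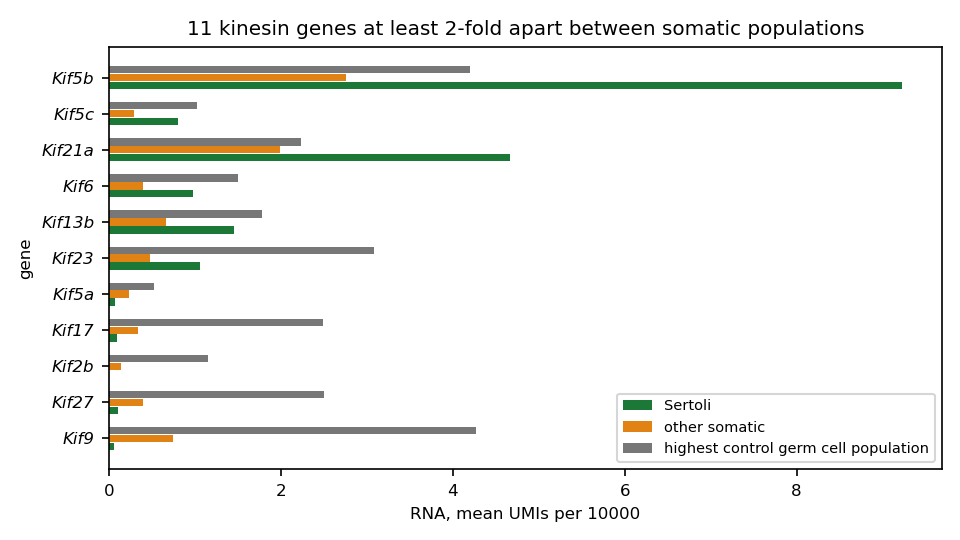
RNA (mean UMIs per 10000) in Sertoli cells, in other somatic cells and in the highest control germ cell population, for the 11 kinesin genes at least 2-fold apart between the somatic populations. Kif5b and Kif21a are above every germ cell value in Sertoli cells (9.23 and 4.66), while Kif9 and Kif17 are highest in germ cells (4.27 and 2.49).

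scATAC-seq signal was compared to see whether chromatin at the kinesin genes was less accessible in SpG Nfya-CKO. Signals are scaled to 1000000 per population. The methods of the study take the accessibility of a promoter as mean normalized coverage up to 200 bases either side of the start, but do not say whether the deposited matrix used that region. The fragments counted for each gene are not given in the sources used here, so these values have no interval. Of the scATAC-seq cells with a population name from scRNA-seq, 1230 were undiff. SpG (median 26323.5 fragments). SpG Nfya-CKO had 470 such cells (32543 fragments) and ES had 124 (18278.5). The ratio of signal plus 1 in SpG Nfya-CKO over undiff. SpG was under 1 for 29 of 40 members (72.5%) with a median of 0.900, and under 1 for 52.6% of 29939 genes with a median of 0.981. Genes with signal in the middle range of the kinesins had lower ratios than all genes, however. Among the 6897 genes between the quartiles of the kinesins in undiff. SpG (24.9 to 44.8), 79.3% were under 1 and the median was 0.873. Of the 20 kinesins in the same range of signal, 18 (90%) were under 1 and their median was 0.844. Scaled without the mitochondrial genes, the median ratio was 0.988 over the members and 1.07 over all genes, with 21 of 40 members (52.5%) and 41.3% of all genes under 1. Between the quartiles of the kinesins, 12 of the 20 members (60%) and 60.9% of all genes were then under 1.

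**Figure D5:**
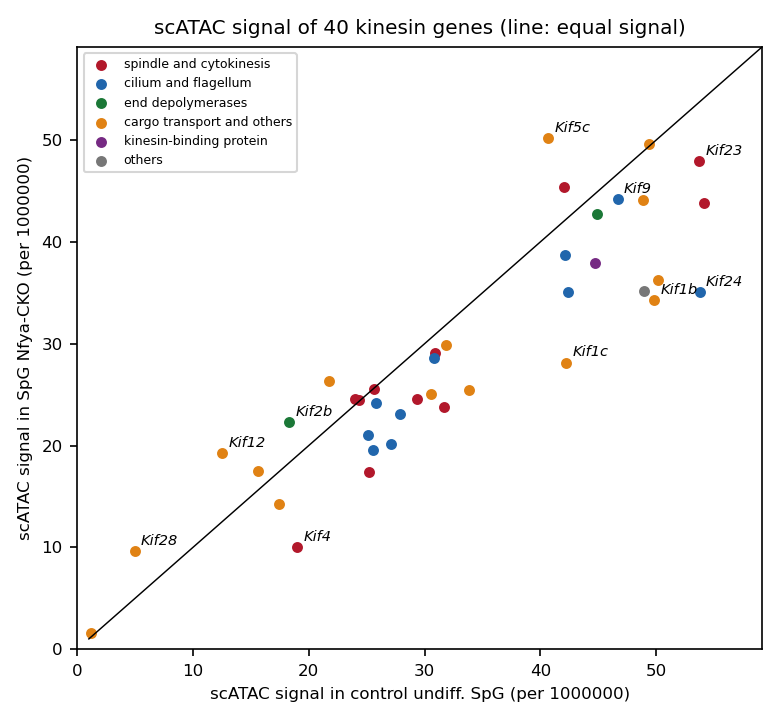
scATAC signal of 40 kinesin genes in control undiff. SpG (horizontal) and in SpG Nfya-CKO (vertical), each scaled to 1000000 per population, with colours for role groups and a line of equal signal. Kif4 (19.0 to 10.0), Kif24 (53.8 to 35.0) and Kif1c (42.2 to 28.1) lie below the line, Kif28 (4.97 to 9.65) and Kif12 (12.5 to 19.3) above.

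Kif4 had the lowest ratio of the family, 0.550, with a signal of 19.0 in undiff. SpG, 21.8 in diff. SpG, 19.2 in pL and 10.0 in SpG Nfya-CKO. It stood at percentile 1.03 of all genes, while its RNA was not lower, at 0.605 against 0.395. Kif24, the gene with 4 CCAAT boxes, was next at 0.658, with 53.8, 70.9, 77.6 and 35.0 in these populations. Kif1c followed at 0.674, with 42.2, 53.0, 58.2 and 28.1. For Kif1c signal and RNA were both lower than in undiff. SpG, but in diff. SpG its signal was higher (53.0) where its RNA was lower (0.321). All 10 cilium and flagellum genes had a ratio under 1, with a median of 0.842, and 8 of 11 spindle genes (72.7%), with a median of 0.894. These counts stand beside the 79.3% under 1 and the median of 0.873 of all genes between the quartiles of the kinesins. Scaled without the mitochondrial genes, 6 of 10 cilium and flagellum genes and 6 of 11 spindle genes were under 1, where 60.9% of genes between the quartiles were. The 15 transport genes ran from 0.674 to 1.78, with 8 of them under 1. Those above 1 included genes of low signal such as Kif28 and Kif12. They also included Kif5c (40.7 in undiff. SpG and 50.2 in SpG Nfya-CKO) and, barely, Kif26b (49.4 and 49.6).

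Kinesins with CCAAT in a promoter window had a median ratio of 0.842 (15 genes, 0.550 to 1.21), and those without had 0.941 (17 genes, 0.674 to 1.5). Over all genes the medians were 0.929 with CCAAT (7948 genes) and 0.981 without (11094 genes). The ranges of the kinesins with and without the box overlap over most of their length, and 11 of 15 (73.3%) and 13 of 17 (76.5%) were under 1, where 59.8% of all genes with the box and 53.2% of those without were. Kif16bos is among the genes with the box and shares its signal with Kif16b, which is among those without, and with Kif16bos left out the median with the box was 0.844 (14 genes, 10 under 1).

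Over the control germ cell populations, scATAC signal of the kinesins was set beside their RNA. Spearman's correlation over the 9 populations had a median of 0.30 over 39 genes, was positive for 27 and ran from -0.53 (Kif11) to 0.92 (Kif7). Over 15238 genes the median was also 0.30 and 68.5% were positive, against 69.2% of the members. Scaled without the mitochondrial genes, the median was 0.35 over the members, with 31 positive, and 0.33 over all genes. This is a description over 9 points that share libraries and depth. Kif2b was one of the genes whose signal was highest where its RNA was, at 42.3 in RS against 7.49 in L/Z/eP. Kif26a signal was 69.1 in pL, 48.9 in undiff. SpG and 14.7 in mP/lP, so its lowest value fell, like its RNA, after zygotene. The signal of Kif23 was 84.2 in pL and 41.3 in L/Z/eP, and that of Kif9 was 40.9 in pL, 44.1 in D and 51.3 in diff. SpG, a range far narrower than that of its RNA. Of the 40 genes, 35 had their lowest signal in L/Z/eP or mP/lP. When mitochondrial signal, 31.2% to 63.8% of a control germ cell population, was left out of the scaling, 4 did, so this low point depends on the scaling. Over all genes, L/Z/eP was the lowest population for 37.2% and mP/lP for 18.5% before the mitochondrial signal was left out. Kif16b and Kif16bos had near-equal signals, 50.2 and 49.0 in undiff. SpG, and cannot be told apart.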

How the data were processed

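The members, role groups and partner lists were chosen with earlier results of these data known. The authors aligned scRNA-seq reads with STAR (2.7.10b) and scATAC-seq reads with BWA (0.7.12) to mm10, and filtered cells with Seurat (5.2.1) and ArchR (1.0.3), keeping cells with at least 500 genes and under 5% mitochondrial UMIs, or with 1000 fragments and a TSS score of 4. They removed doublets in each sample with DoubletFinder for scRNA-seq and ArchR for scATAC-seq, and no further caller was run. Versions are from the submitters' processing notes. The authors deposited raw counts of UMIs or fragments per cell, and for each assay 1 matrix of the natural log of 1 plus the mean of 13 populations, as found from the values. The 15 other columns of values were not used.

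exp(value) - 1 gave RNA per 10000 and scATAC signal per 1000000 (Python 3.11.15, numpy 2.4.6, pandas 2.3.3, scipy 1.17.1). In 11 of 13 populations the smallest RNA value equals 1 UMI in the deepest cell, within a relative 1e-06, so values were converted to implied UMIs for 95% Poisson intervals, which are approximate because cells weigh unequally. Intervals were tested on simulated data. RNA ratios are log2 ratios after adding 0.1, for genes whose mean reached 0.05, and scATAC ratios were taken after adding 1. The threshold was 2-fold. Levels in all germ cell populations are given for the 4 members of each role group with the most implied UMIs and for members past the threshold in SpG Nfya-CKO. Other genes given with values, the barcode counts and the promoter stretches were chosen after their values were seen. Library totals were 30227701 to 64967271 UMIs and 177596122 to 872964488 fragments. 49 cells had no library name.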

Additional observations from a re-analysis of the deposited data

How the results depend on the processing

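No paired analysis was possible because each condition and assay has a single library with replicate number 1, and the populations are pooled over libraries. Leaving out a replicate was not possible either. Of 77 alternative values, 42 stayed within 1.5 times the reported count or correlation, or within the interval of the reported ratio, 32 moved farther and 3 turned.

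Steps at least 2-fold higher fell from 13 to 3 with a pseudocount of 0.5 and to 1 at a 3-fold threshold, and steps lower from 13 to 2 and 4. Stages of highest RNA moved by at most 2 genes. Against undiff. SpG, 1 member was higher in SpG Nfya-CKO. This count was 5 with pL as the reference, 2 with a pseudocount of 0.02, 0 with 0.5, 0 after scaling by the median of ratios and 4 at a 1.5-fold threshold. The 1 lower member became 3 against diff. SpG, 2 against pL, 2 with 0.02 and 0 with 0.5. The log2 ratio of Kif1c turned to 0.23 against diff. SpG, and that of Kif15 to -0.12 against diff. SpG and -0.25 against pL. The median scATAC ratio of the members was 0.900, 0.988 without the mitochondrial genes and 0.773 against diff. SpG, where all genes had 0.934, and the number lowest in L/Z/eP or mP/lP was 4 instead of 35 without the mitochondrial genes. Between Sertoli and other somatic cells, 6 higher and 5 lower members became 2 and 1 with 0.5, and 2 were lower after scaling by the median of ratios, which shifts the median of all genes there by 0.28 and in SpG Nfya-CKO by -0.12. The causes were not tested. Leaving out diff. SpG, ES or Kif1bp and Kif16bos, the 1.5-fold threshold, the rescaled correlation and the CCAAT group without Kif16bos were chosen after seeing the data.

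Depth limits weak members. In ES 3 UMIs correspond to 0.0120 per 10000, and in pL to 0.00246, and Kif2b in pL lay below the latter.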
